A study of Mus musculus with 11 samples.

Results

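Type I interferon-induced genes are the antiviral and signaling genes that cells switch on when interferon-alpha or interferon-beta reaches them, and 38 of them, given as a list of gene symbols, were found among the 45777 genes of the deposited table. The list held 4 genes of signaling and transcription (*Irf7*, *Irf9*, *Stat2* and *Sp100*), 6 sensors of nucleic acids, 3 genes of the ISG15 system, 3 *Ifit* genes, 6 oligoadenylate synthetase (OAS) genes and 16 other effectors. RNA was sequenced from the skin and the small intestine of BALB/c mice that received imiquimod (IMQ) cream or vehicle daily on the shaved back and right ear. There were 6 skin libraries (replicates 1 to 3 control, 4 to 6 IMQ) and 5 small intestine libraries (replicates 7 to 9 control, 10 and 11 IMQ). IMQ-treated mice received 62.5 mg of 5% IMQ cream (Aldara) per day for 5 to 8 days from 8 to 10 weeks of age, and control mice received Vaseline, which is not the base of the IMQ cream. The labels gave neither the sex of each mouse nor its number of days, and they did not say which skin and intestine came from the same mouse. The p-values below therefore measure the spread between these libraries.

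Type I interferons bind a receptor made of IFNAR1 and IFNAR2, the kinases JAK1 and TYK2 phosphorylate transcription factors such as STAT2, and the complex ISGF3, which holds STAT2 and IRF9, binds interferon-stimulated response elements in the promoters of its target genes. Imiquimod is a ligand of TLR7, an endosomal receptor for single-stranded RNA, and plasmacytoid dendritic cells are known for high interferon output after TLR7 is engaged. Psoriasis-like inflammation follows its application to mouse skin.

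Response elements of this kind hold repeats of the letters GAAA, so the promoters were searched for GAAANNGAAA and its reverse complement TTTCNNTTTC, from 250 bases before to 50 bases after the gene start in the RefSeq table of GRCm38.p6. A promoter was given for 28 of the 38 genes, and 14 of these 28 (50%) held at least 1 match, against 1079 of 27025 genes (3.99%). Overlapping matches were counted separately. The promoters of *Isg15* and *Oas3*, the genes called in the small intestine, and of *Ifit1* and *Rsad2*, which spread most widely among the control skin libraries, are shown as the 150 bases before the gene start, 5′ to 3′ on the strand of the gene, with the matches in capitals. The stretch of *Isg15* is chr4:156200819-156200968 on the minus strand and held 3 overlapping matches. That of *Ifit1* is chr19:34640739-34640888 on the plus strand and held 2 matches. Those of *Oas3* (chr5:120777660-120777809, minus strand) and *Rsad2* (chr12:26456453-26456602, minus strand) held 1 match each. The start used for *Oas3* lies slightly inside the annotated gene.
Isg15: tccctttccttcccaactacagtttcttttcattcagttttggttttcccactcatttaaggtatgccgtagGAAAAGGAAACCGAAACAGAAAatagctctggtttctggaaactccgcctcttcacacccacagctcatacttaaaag
Ifit1: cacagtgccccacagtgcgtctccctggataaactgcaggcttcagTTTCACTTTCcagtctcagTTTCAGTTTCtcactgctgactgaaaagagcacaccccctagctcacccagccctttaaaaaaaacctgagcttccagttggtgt
Oas3: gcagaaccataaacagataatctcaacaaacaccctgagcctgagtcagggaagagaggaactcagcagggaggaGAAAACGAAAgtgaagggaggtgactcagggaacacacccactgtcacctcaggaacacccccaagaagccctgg
Rsad2: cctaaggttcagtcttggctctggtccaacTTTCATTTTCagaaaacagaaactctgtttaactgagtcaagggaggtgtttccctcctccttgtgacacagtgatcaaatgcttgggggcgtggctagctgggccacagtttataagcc

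A match of letters is a description and not a site of binding. *Bst2*, *Ifit3*, *Ifitm3*, *Oas1a* and *Oas1g* also held 2 matches each, while *Irf7*, *Irf9*, *Oasl1*, *Oasl2* and *Ifi44* held none in this window. No promoter was read for *Mx1*, *Mx2*, *Oas2*, *Usp18*, *Dhx58*, *Rtp4*, *Zbp1*, *Parp9*, *Parp14* and *Ifi27l2a*.

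Total counts lay between 44995414 and 58526384 per library, and no pair of replicates agreed within sampling noise. The labelled tissues carried their markers. Summed normalized counts of 6 epidermis markers were 579612.9 to 1794519.1 in skin and 68.99 to 199.5 in small intestine. Those of 10 small intestine epithelium markers were 1069053.6 to 2275408.7 in small intestine and 459.1 to 983.1 in 5 of the 6 skin libraries. The remaining skin library, control replicate 2, stood at 17834.7. It was also apart from control replicates 1 and 3 in the summed count of 9 hair follicle markers, 1494.0 against 66695.9 and 104274.4, and here it lay with the IMQ libraries (1352.0 to 2090.5). Values in skin are therefore given with and without control replicate 2. Normalized counts are read counts scaled by relative log expression within each tissue, and all 38 genes passed the filter of at least 1 count in every library. A gene was called when its p, adjusted by Benjamini and Hochberg's method across every tested gene, was below 0.05 (edgeR, quasi-likelihood).

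Levels in the control tissues were compared first, to show where the genes stood in mice that received vehicle. Most of the interferon-induced genes were higher in control small intestine than in control skin. In FPKM, read fragments scaled by gene length and library size, the 38 genes had a median of 5.19 in control skin (0.862 to 191) and of 14.1 in control small intestine (1.44 to 112). *Ifitm3*, which blocks the entry of viruses, and *Ifi27l2a*, a small gene strongly induced by interferon-alpha, headed control skin at 191 ± 16.7 and 142 ± 19.5 FPKM (SD, n = 3). *Lgals3bp*, a secreted glycoprotein that binds galectins, headed control small intestine at 112 ± 21.6 FPKM (SD, n = 3), with *Ifitm3* next at 87.3 ± 21.4. These values overlap within their spread.

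**Figure D1:**
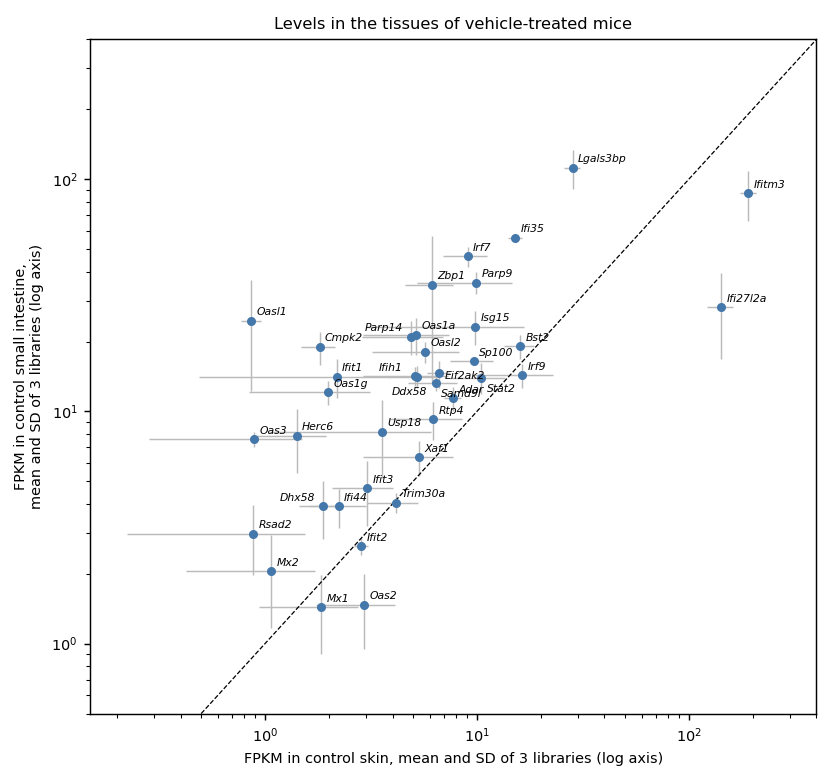
Mean FPKM of the 38 genes in control skin (x axis) and control small intestine (y axis), both on log axes, with bars for the SD of 3 libraries and a dashed line at equal levels. Most genes lie above the line, *Oasl1* farthest from it, and *Ifi27l2a* and *Ifitm3* lie below it.

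In the test between control tissues, 32 of 38 genes were called (84.2%, against 57.0% of all 18108 genes tested), 30 of them higher in small intestine (28.2% of all genes) and 2 lower (28.8% of all genes). The median log2 difference of the 38 genes was 1.60 and that of all genes -0.01. On the log2(FPKM + 0.01) scale the median of all genes moved to -0.45 and the share of higher among called genes fell from 49.5% to 27.7%, and there 30 of the 38 genes were called (63.7% of all genes), 27 higher (17.6%) and 3 lower (46.0%), with a median of 1.24. *Cmpk2*, a mitochondrial nucleotide kinase gene (chromosome 12, 26469117 to 26479837), had the smallest p. Its FPKM were 1.43, 2.0 and 1.99 in control skin and 17.5, 22.5 and 16.9 in control small intestine, a log2 difference of 3.83 ± 0.17 (SE; adjusted p = 4.4e-08). The libraries of the tissues were far apart, and the same held for the next genes in order.

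*Oasl1*, which limits the translation of *Irf7* mRNA in mice, showed the widest gap, with FPKM of 0.968, 0.831 and 0.787 in control skin and 20.4, 15 and 38.4 in control small intestine (log2 difference 5.31 ± 0.36). *Irf7*, the transcription factor that drives interferon genes (chromosome 7, 141263183 to 141266499), stood at 6.77, 11 and 9.33 FPKM against 51.9, 44.9 and 43.0 (2.80 ± 0.21). *Ifi35* stood at 14.2, 16.5 and 15 against 56.8, 55.0 and 56.3 FPKM (2.33 ± 0.13). No library of one tissue came near the other. *Lgals3bp* had FPKM of 25.6, 29.1 and 30.3 in control skin and 136, 105 and 94.3 in control small intestine (2.43 ± 0.20). *Eif2ak2*, the gene of the RNA-dependent kinase PKR, had 5.94, 7.55 and 6.47 FPKM against 12.4, 16.2 and 15.2 (1.58 ± 0.15). Adjusted p-values of these 5 genes lay between 1.56e-07 and 4.43e-06 in edgeR's quasi-likelihood test. Both genes that were lower in small intestine were those at the top of control skin. FPKM of *Ifi27l2a* were 138, 163 and 125 in control skin and 40.1, 18.1 and 26.0 in control small intestine (-1.88 ± 0.29, adjusted p = 0.000201), and the log2 difference of *Ifitm3* was -0.67 ± 0.26 (adjusted p = 0.0455), a call that held in 3 of 11 fits that left out 1 library (adjusted p of up to 0.151). *Ifit2*, *Irf9*, *Mx1*, *Oas2*, *Xaf1* and *Trim30a* were not called between tissues with all 11 libraries. Without control skin replicate 2, 35 of the 38 genes were called (10421 of all 18180 genes tested). Of these 35, 34 were higher in small intestine (5176 of all genes) and 1 was lower, and the median log2 difference was larger. In fits that left out 1 library, *Irf9*, *Xaf1* and *Trim30a* were each called in 1 of 11. *Ifit2* and *Oas2* were each called in 2 of 11, and *Mx1* in 0 of 11. The tissues hold different cells, and in bulk RNA fewer cells of a type and less RNA per cell cannot be told apart.

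In skin, the question was whether IMQ raised the interferon-induced genes at the site of treatment, and no gene of the 38 was called with all 6 libraries. The counterpart over all 20512 genes tested was 1382 called (6.74%), 830 higher (4.05%) and 552 lower (2.69%). At an unadjusted p under 0.05, 9 of the 38 genes passed (23.7%, against 23.2% of all genes), 8 of them with higher values in IMQ-treated mice (21.1%, against 11.4%). DESeq2 called 4 genes (10.5%, against 15.7% of all genes with an adjusted p), *Trim30a*, *Dhx58* and *Oasl1* higher (7.89%, against 7.84%) and *Ifi27l2a* lower (2.63%, against 7.85%). Limma-voom, edgeR's own expression filter and log2(FPKM + 1) each called *Oasl1* alone (2.63%, against 6.25%, 7.84% and 4.36% of all genes). The median log2 fold change of the 38 genes was 0.07 (all genes -0.01), and 24 of 38 were above 0, as were 48.5% of all genes. Every IMQ library lay above every control for 5 genes (13.2%, against 15.1% of all genes), *Oasl1*, *Dhx58*, *Ifi35*, *Trim30a* and *Sp100*, and below every control for 2 genes (5.26%, against 13.3%), *Ifit2* and *Ifi27l2a*.

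Control replicate 2 was the highest of the 3 control skin libraries for 37 of the 38 genes, against 42.4% of all genes, and the highest of all 6 skin libraries for 24 of them, against 22% of all genes. Its level over the mean of control replicates 1 and 3 had a median of 1.81 over the 38 genes, from 1.04 for *Oasl1* to 3.54 for *Ifit1*, and was above 1.5 for 25 genes (15.3% of all genes). The mean of the IMQ libraries over the same control mean had a median of 1.39, from 0.613 for *Ifi27l2a* to 3.0 for *Rsad2*. Intestinal transcripts in control replicate 2 stood at a median of 1.24% of their control small intestine level (0% to 0.0276% in the other skin libraries). The same share of the intestinal level of each of the 38 genes would equal a median of 2.09% of its level in this library, and at most 35.9%, for *Oasl1*. What sets this library apart was not tested beyond these values.

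**Figure D2:**
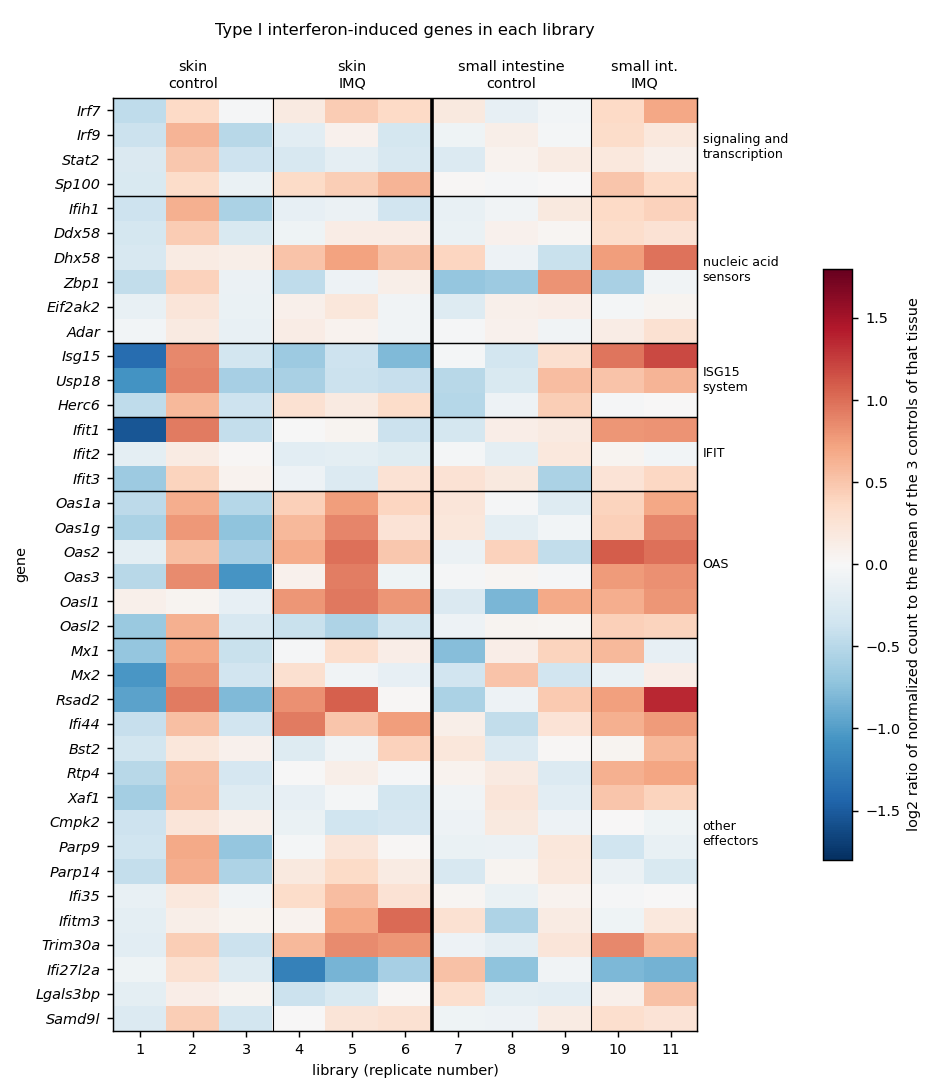
Color shows the log2 ratio of the normalized count of each of the 38 genes (y axis) in each of the 11 libraries (x axis) to the mean of the 3 controls of the same tissue, with genes grouped by role. Control skin replicate 2 is above the control mean for all 38 genes, and the IMQ libraries of the small intestine are above their control mean for 29 and 31 genes.

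Without control replicate 2, 9 of the 38 genes were called (23.7%, against 12.1% of 20752 genes), all higher (5.49% of all genes) and none lower (6.66% of all genes). They were *Trim30a*, *Parp14*, *Ifi44*, *Oas1a*, *Sp100*, *Oas2*, *Oas1g*, *Herc6* and *Rsad2*. The median log2 fold change was 0.48 (all genes 0.01) and 34 of 38 genes were above 0, as were 51.3% of all genes. Every IMQ library then lay above both remaining controls for 26 genes (68.4%, against 23.3% of all genes) and below both for 2 (5.26%, against 24.1%). With each of the other 5 skin libraries left out in turn, no gene was called and the median lay between -0.08 and 0.14. The counts in skin thus differed with 1 control library in or out, and this library was left out with its values known. Hair follicle content differed along with IMQ in the fit without control replicate 2. Summed follicle marker counts were 66695.9 and 104274.4 in its controls and 1352.0 to 2090.5 with IMQ. Of 6 follicle markers tested there, 5 were called lower (6.66% of all genes). The part of follicle content in the 9 calls was not tested.

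Among the signaling and transcription genes, normalized counts of *Irf7* were 646.9, 1136.3 and 868.2 in control skin (replicates 1 to 3) and 986.8, 1208.3 and 1131.4 in IMQ skin (replicates 4 to 6), a log2 fold change of 0.33 (95% CI -0.18 to 0.84) that became 0.55 (0.13 to 0.98) without control replicate 2. *Irf9*, the DNA-binding part of ISGF3, had 1678.4, 3349.9 and 1549.0 in control skin and 1916.8, 2309.7 and 1754.9 in IMQ skin (-0.14, -0.86 to 0.58). *Stat2*, its activating partner, had 2108.2, 3533.1 and 1964.8 against 2085.0, 2270.6 and 2080.5 (-0.24, -0.78 to 0.30). The highest value of *Irf9* and of *Stat2* was that of control replicate 2, the groups overlapped, and without it the log2 fold changes were 0.31 and 0.08. *Sp100*, a component of nuclear bodies, had 1216.1, 1863.6 and 1353.7 in control skin and 1875.2, 2011.4 and 2248.0 in IMQ skin, so that its groups did not overlap with or without that library (0.47 with all libraries, adjusted p = 0.179, and 0.67 without, adjusted p = 0.0245).

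The OAS genes encode oligoadenylate synthetases, which activate RNase L, and related proteins such as that of *Oasl1*, which lacks this activity in mice. Of these 6 genes, none was called with all libraries and 3 were without control replicate 2. *Oasl1* (chromosome 5, 114923143 to 114937911) had 107.7, 103.6 and 90.66 normalized counts in control skin and 174.8, 194.4 and 175.0 in IMQ skin. It was the gene whose control libraries differed least, its groups did not overlap, and its log2 fold change was 0.85 ± 0.20 (SE; adjusted p = 0.0553), or 0.87 without control replicate 2 (adjusted p = 0.0525). *Oas2* had 773.6, 1267.1 and 577.1 in control skin and 1391.1, 1737.9 and 1217.3 in IMQ skin (0.73 with all libraries, 1.10 without replicate 2, adjusted p = 0.201 and 0.0279). *Oas1a* had 335.7, 733.9 and 325.1 against 625.1, 780.5 and 609.7 (0.53 and 1.03, adjusted p = 0.401 and 0.0184). In both, only control replicate 2 lay within the range of the IMQ libraries. *Oasl2* was higher in control replicate 2, at 1507.0, than in any other skin library (610.7 and 792.4 in controls, 658.1 to 772.0 with IMQ), and its log2 fold change was -0.43 with all libraries and 0.04 without it. *Oas1a* and *Oas1g* are near-identical paralogs, and how the counting divided their reads was not given in the sources used here.

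The ISG15 system, in which HERC6 attaches and USP18 removes the ubiquitin-like protein ISG15, gave wide intervals in skin. *Isg15* (chromosome 4, 156199424 to 156200818) had 156.5, 737.2 and 321.7 normalized counts in control skin and 257.9, 313.6 and 233.3 in IMQ skin. *Usp18* had 163.8, 643.4 and 228.4 against 230.6, 263.3 and 259.8. For both genes the IMQ libraries lay close together within the range of the controls, and control replicate 2 lay above all other skin libraries. The log2 fold change of *Isg15* was -0.59 (95% CI -1.82 to 0.63) with all libraries and 0.17 (-0.67 to 1.0) without replicate 2, and that of *Usp18* was -0.46 (-1.62 to 0.71) and 0.36 (-0.18 to 0.90). *Ifit1*, which binds viral RNA (chromosome 19, 34640889 to 34650009), had 107.7, 601.9 and 232.7 in control skin and 313.6, 326.0 and 239.6 in IMQ skin, and its log2 fold change moved from -0.10 (-1.44 to 1.25) to 0.78 (-0.11 to 1.68). None of these 3 genes was called either way.

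*Rsad2* (viperin) had 93.19, 349.0 and 104.6 normalized counts in control skin and 321.3, 385.6 and 184.5 in IMQ skin. It rose by 1.59 ± 0.36 on the log2 scale without control replicate 2 (adjusted p = 0.0425), against 0.71 (-0.62 to 2.04) with it. *Ifi44* had 257.9, 501.6 and 270.2 in control skin and 656.8, 486.4 and 579.0 in IMQ skin (0.74, adjusted p = 0.191, and 1.12, adjusted p = 0.0179). Again, control replicate 2 alone reached into the range of the IMQ libraries. *Trim30a*, a regulator of TLR signaling, had 741.0, 1152.6 and 645.1 against 1266.5, 1527.1 and 1466.5, with no overlap in either case (0.75, adjusted p = 0.107, and 1.04, adjusted p = 0.0109), and reads shared with other *Trim30* genes are uncertain. *Parp14* had 1636.8, 3497.2 and 1504.6 against 2488.3, 2807.4 and 2453.7 (0.22, adjusted p = 0.729, and 0.72, adjusted p = 0.0157). *Mx1* had 166.5, 435.1 and 204.0 against 263.4, 332.2 and 291.6 (0.14 and 0.68, adjusted p = 0.863 and 0.0899).

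*Ifi27l2a* (chromosome 12, 103433873 to 103443680) stood lower with IMQ in skin. Its normalized counts were 3351.4, 4267.0 and 2998.6 in control skin and 1520.1, 1972.4 and 2348.8 in IMQ skin, without overlap. The log2 fold change was -0.86 ± 0.20 with all libraries (adjusted p = 0.0530) and -0.70 ± 0.19 without control replicate 2 (adjusted p = 0.0686), so the difference missed the threshold of edgeR's quasi-likelihood test in both.

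The interval of the log2 fold change lay within 2-fold in either direction for 21 of the 38 genes in skin with all libraries and for 22 without control replicate 2, and its upper limit was under 2-fold for 25 and 23. The highest upper limit was that of *Rsad2* in both, 2.04 and 2.47 on the log2 scale.

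**Figure D3:**
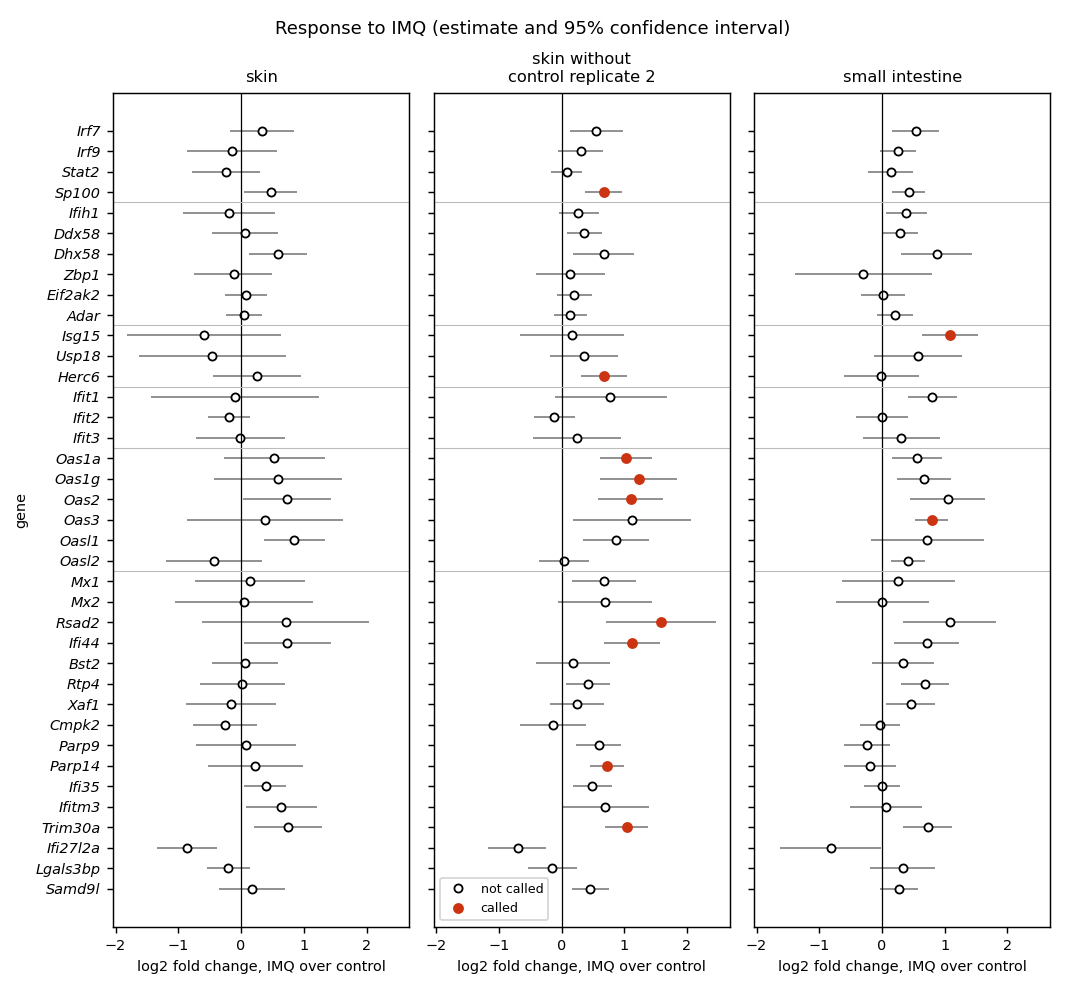
Log2 fold change of IMQ over control (x axis) of each of the 38 genes (y axis), with 95% confidence intervals, in skin, in skin without control replicate 2 and in small intestine. Filled points are called at an adjusted p under 0.05, which holds for 0, 9 and 2 genes.

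In the small intestine, which received no cream, 2 of the 38 genes were called in IMQ-treated mice, both higher: *Oas3* and *Isg15* (5.26%, against 2.95% of 19965 genes called, 2.77% higher and 0.170% lower). The study itself detected IMQ in serum and in the intestine after topical treatment. The median log2 fold change of the 38 genes was 0.33 (all genes -0.02), and 31 of 38 were above 0, as were 46.3% of all genes. An unadjusted p under 0.05 was found for 17 genes (44.7%, against 12.3% of all genes), 16 of them with higher values in IMQ-treated mice (42.1%, against 8.43%). Both IMQ libraries lay above all 3 controls for 20 genes (52.6%, against 15.1% of all genes) and below all 3 for 2 genes (5.26%, against 13.9%), *Parp9* and *Ifi27l2a*.

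*Oas3* (chromosome 5, 120753098 to 120777684) had 2017.6, 2114.1 and 2028.1 normalized counts in control small intestine (replicates 7 to 9) and 3486.8 and 3623.7 in IMQ small intestine (replicates 10 and 11). The controls differed by little and the groups were far apart, and the gene rose 1.73-fold, or 0.79 ± 0.11 on the log2 scale (SE; adjusted p = 0.00968). *Isg15* had 993.6, 812.6 and 1247.7 in controls and 1994.4 and 2316.3 with IMQ, also without overlap, and rose 2.12-fold (1.08 ± 0.19, adjusted p = 0.0295). Both calls depended on single libraries and on the fit. With edgeR's quasi-likelihood test, *Oas3* was no longer called without control replicate 9 (adjusted p = 0.0534), IMQ replicate 10 (0.0791) or IMQ replicate 11 (0.0976), and *Isg15* was not called without control replicate 8 (0.0586), IMQ replicate 10 (0.112) or IMQ replicate 11 (0.214). In a fit of all 11 libraries neither gene was called (adjusted p = 0.579 for *Oas3* and 0.391 for *Isg15*, none of the 38 genes against 3.66% of all genes), and with log2(FPKM + 1) *Isg15* alone was (0.0383, against 0.0533 for *Oas3*, 2.02% of all genes called). With 1 IMQ library left, that library is assumed to vary like the controls. The number of the 38 genes called was 4 without control replicate 7 (3.94% of all genes called), 2 without 8 (1.97%), 1 without 9 (1.87%) and 0 without 10 (1.46%) or 11 (1.63%). DESeq2 called 11 genes (28.9%, against 6.69% of all genes with an adjusted p), all higher (5.58% of all genes), adding *Ifit1*, *Trim30a*, *Sp100*, *Oas1g*, *Oasl2*, *Rsad2*, *Rtp4*, *Dhx58* and *Oas2*.

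**Figure D4:**
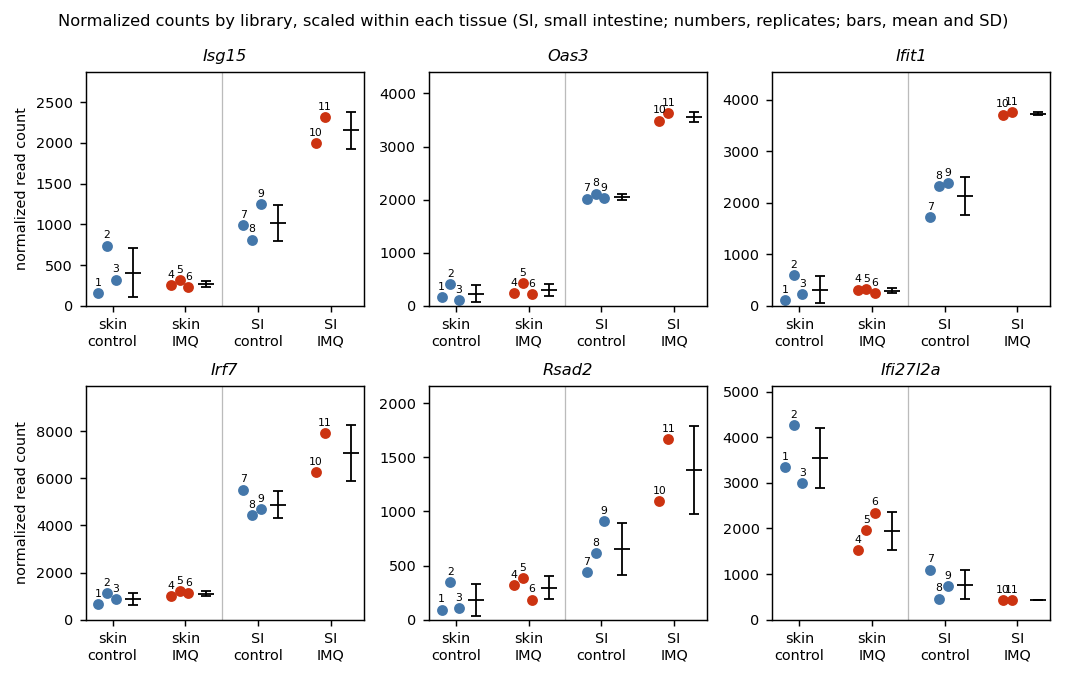
Normalized read counts (y axis, from 0) of 6 genes in each library, with the replicate number at each point and the mean and SD of each group beside it. Counts were scaled within each tissue, so heights compare control with IMQ and not skin with small intestine. Control skin replicate 2 is the highest skin library for *Isg15*, *Ifit1* and *Ifi27l2a*. Both IMQ libraries of the small intestine are above their controls for 5 of the 6 genes and below them for *Ifi27l2a*.

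Among the genes that were not called, *Ifit1* came closest, with 1716.0, 2318.8 and 2390.1 normalized counts in controls and 3714.7 and 3757.8 with IMQ (0.80, 95% CI 0.42 to 1.19, adjusted p = 0.0531). *Rsad2* had 439.3, 612.0 and 907.8 against 1092.1 and 1671.0 (1.08, 0.34 to 1.82, adjusted p = 0.174). *Oas2* had 406.8, 581.7 and 322.3 against 931.4 and 871.5 (1.05, 0.45 to 1.64, adjusted p = 0.098). In all 3 genes both IMQ libraries lay above every control, and the spread of the controls differed. *Dhx58*, the gene of the RNA sensor LGP2, had 711.6, 512.2 and 414.7 against 916.9 and 1076.7 (0.87, 0.30 to 1.43, adjusted p = 0.148). *Trim30a* had 836.3, 798.5 and 1033.4 against 1613.1 and 1338.4 (0.73, 0.34 to 1.12, adjusted p = 0.082). *Ifi44* had 699.6, 475.9 and 766.5 against 1009.5 and 1102.2 (0.71, 0.19 to 1.22, adjusted p = 0.203). These intervals excluded 0 although the adjusted p did not pass, since adjustment ran over 19965 genes.

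The transcription factors of the pathway stood as follows. *Irf7* had 5514.7, 4421.8 and 4697.1 normalized counts in control small intestine and 6242.9 and 7898.2 with IMQ (0.54, 0.16 to 0.91, adjusted p = 0.187), without overlap. *Irf9* had 1963.3, 2219.0 and 2014.3 against 2588.1 and 2355.2 (0.26, -0.03 to 0.54). *Stat2* had 3047.0, 3780.6 and 4021.1 against 4105.9 and 3847.6 (0.14, -0.22 to 0.49). The groups of *Stat2* overlapped and its interval stayed under 1.41-fold. *Usp18* had 598.8, 697.7 and 1237.5 against 1210.1 and 1291.8 (0.57, -0.13 to 1.27), *Mx1* had 132.3, 245.0 and 298.3 against 335.9 and 202.9 (0.26, -0.64 to 1.16), and control replicate 9 was the highest control for both.

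Control replicate 9 was the highest of the 3 controls for 18 of the 38 genes (29.5% of all genes). For *Zbp1*, a sensor of left-handed nucleic acids, its 5123.8 normalized counts exceeded every other library of the small intestine (1800.6 and 1863.1 in controls, 1955.4 and 2805.3 with IMQ), and the log2 fold change was -0.30 with this library and 0.37 without it. For *Oasl1* it held 5076.7, within the range of the IMQ libraries (4956.5 and 5463.2) and above the other controls (2630.5 and 1786.5). It was also highest for *Cxcl9*, a chemokine induced mainly by interferon-gamma, at 1184.9 against 443.7 and 344.8 in the other controls. The part of that in the values above was not tested.

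The genes at the low end were few. *Ifi27l2a* had 1096.7, 462.8 and 728.7 normalized counts in control small intestine and 436.6 and 424.7 with IMQ (-0.82, 95% CI -1.62 to -0.02, adjusted p = 0.388), below every control. *Parp9* had 6145.0, 6228.5 and 7669.1 against 5229.8 and 6063.1 (-0.24, -0.61 to 0.12), and *Parp14* had 8287.3, 10442.7 and 11564.6 against 9363.0 and 8311.8 (-0.19, -0.61 to 0.22). These genes are neighbors on chromosome 16, and reads of overlapping transcripts there are uncertain. Over the 38 genes, the interval lay within 2-fold in both directions for 23, and the highest upper limit was 1.82 on the log2 scale, for *Rsad2*.

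By role, all 6 OAS genes had a log2 fold change above 0 in the small intestine (0.42 to 1.05, median 0.69, 1 called), as did the 4 signaling and transcription genes (0.14 to 0.54, none called). The 16 other effectors had a median of 0.27 (-0.82 to 1.08, none called, 6 at an unadjusted p under 0.05). In skin without control replicate 2 the OAS genes again had the highest median of the 6 roles, 1.06, against 0.54 for the other effectors and 0.24 for the nucleic acid sensors.

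The comparison of control tissues shares control libraries with the comparisons within each tissue, so their values are given side by side. The comparisons of IMQ with control in skin and in small intestine share no library. Whether the response differed between the tissues was tested with an interaction term, which takes the log2 fold change in small intestine minus that in skin and uses all 11 libraries. None of the 38 genes was called (edgeR's quasi-likelihood test, 2.55% of 18108 genes called). At an unadjusted p under 0.05 there was 1 gene by edgeR, *Isg15* (2.63%, against 16.9% of all genes), and 2 by DESeq2 (5.26%, against 18.2%), which called none (7.68% of all genes). The difference for *Isg15* was 1.69 (95% CI 0.27 to 3.11, adjusted p = 0.210), with values of -0.59 in skin and 1.08 in small intestine. The median difference of the 38 genes was 0.21, and it was -0.11 without control skin replicate 2, when *Parp14* alone was called (5.90% of all genes) and lower in the small intestine. The direction of this median therefore rested on that library.

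Few reads of interferon genes were counted. Of 21 genes of type I, II and III interferons in the table, 15, *Ifnb1* among them, had no count in any of the 11 libraries. A count of 0 allows up to 3 counts per library, or 0.0513 to 0.0667 CPM (counts scaled to library size), a limit that covers counting error only. The other 6 held 131 counts in all. *Ifnk*, the keratinocyte interferon, had 2 and 20 counts in IMQ skin replicates 4 and 5 and none elsewhere, and *Ifng* had 0 to 17 counts per library with no difference between groups that could be seen at this depth.

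Of 6 interferon receptor genes, 2 were called in skin, both higher (4.05% of all genes). *Ifngr1* was called higher as well without control replicate 2 (5.49% of all genes). *Ifnar2* had 1325.5, 1474.3 and 1449.6 normalized counts in control skin and 1972.5, 1959.0 and 2385.9 in IMQ skin (0.57 ± 0.12, adjusted p = 0.0412). *Il10rb*, a subunit of the interferon-lambda and interleukin-10 receptors, had 1388.9, 1514.7 and 1330.2 against 2383.4, 2214.0 and 2318.0 (0.71 ± 0.10, adjusted p = 0.0132). Neither pair of groups overlapped, and both calls also held without control replicate 2 (adjusted p = 0.0378 and 0.00964). With 1 of the other 5 skin libraries left out, *Ifnar2* was not called in any fit, with adjusted p of up to 0.164, and *Il10rb* was called in 2 of 5. *Ifnar1* did not pass in either tissue, with log2 fold changes of 0.15 (95% CI -0.09 to 0.38) in skin and 0.08 (-0.24 to 0.40) in small intestine. In the small intestine *Ifnar2* had 1106.4, 715.8 and 1044.5 against 1590.4 and 1790.8 (0.82, 0.35 to 1.30, adjusted p = 0.102).

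None of the 3 Janus kinase genes (*Jak1*, *Jak2* and *Tyk2*) was called in either tissue. *Jak1* had the smallest p in both, with log2 fold changes of 0.37 (0.00 to 0.73) in skin and 0.24 (-0.11 to 0.59) in small intestine.

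Upstream, 19 genes of the TLR7 pathway and interferon induction were tested. Of these, 5 were called higher in skin (4.05% of all genes) and 6 in small intestine (2.77%), and none lower (2.69% and 0.170%). In skin without control replicate 2, 7 were called higher (5.49% of all genes). *Tlr7* had 453.3, 339.1 and 220.5 normalized counts in control skin and 793.4, 919.3 and 671.2 in IMQ skin (1.23 ± 0.28, adjusted p = 0.0482). In small intestine it had 247.3, 220.8 and 206.0 against 499.3 and 531.1 (1.20 ± 0.19, adjusted p = 0.0185). Its groups were apart in both tissues, while the call was lost in each of the 6 fits that left out 1 skin library (adjusted p = 0.0632 to 0.181) and in 4 of 5 such fits in small intestine (up to 0.139). *Unc93b1*, which carries endosomal TLRs to their compartment, rose 3.08-fold in skin (1.62 ± 0.16, adjusted p = 0.00445) and 2.75-fold in small intestine (1.46 ± 0.13, adjusted p = 0.00139), and these calls held in all 11 fits that left out 1 library. *Tlr8* rose 3.42-fold in skin (adjusted p = 0.0211), where 2 of 6 such fits kept the call (up to 0.0873), and 19.4-fold in small intestine (adjusted p = 0.000137), where 5 of 5 did. *Myd88*, the adaptor of these receptors, rose by 0.94 and 0.87 on the log2 scale (adjusted p = 0.00719 and 0.00607). *Irf8* did not pass in either tissue, at 0.34 (-0.23 to 0.91) in skin and -0.44 (-0.88 to 0.01) in small intestine.

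**Figure D5:**
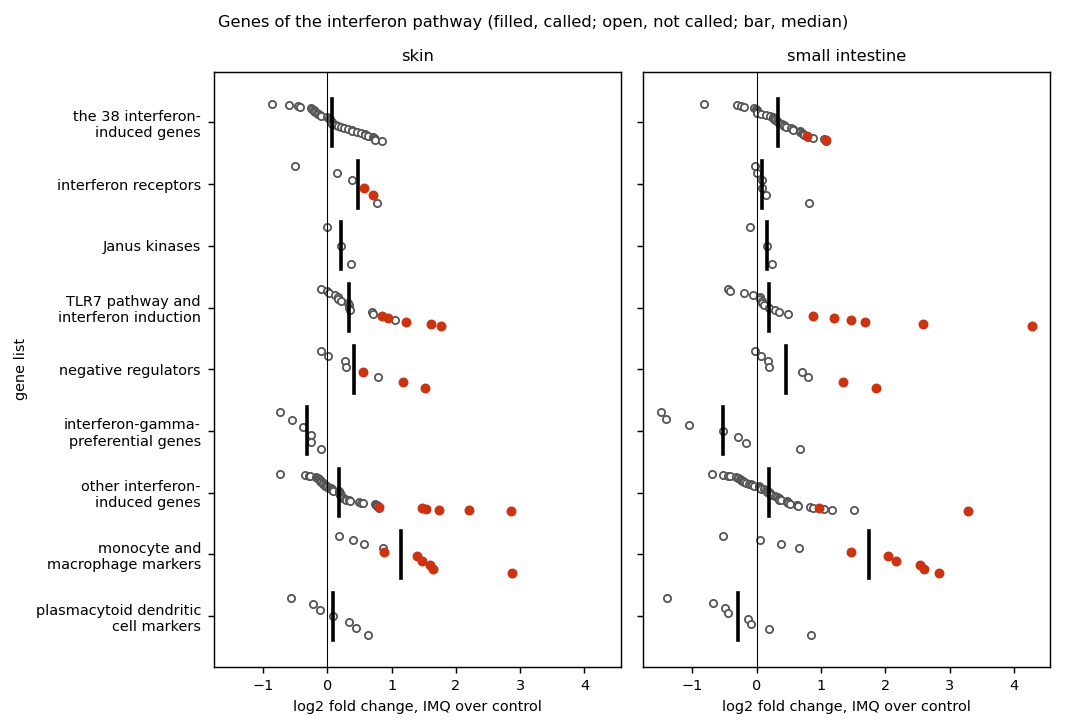
Log2 fold change of IMQ over control (x axis) for each tested gene of 9 lists (y axis) in skin with all 6 libraries and in small intestine, with filled points for called genes and a bar at the median of each list. The 38 interferon-induced genes lie near 0 in skin (median 0.07), while the monocyte and macrophage markers lie higher in both tissues (medians 1.14 and 1.75).

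Among 8 negative regulators, 3 were called higher in skin (4.05% of all genes) and 2 in small intestine (2.77%). The number in skin was also 3 without control replicate 2 (5.49% of all genes). *Socs3*, an inhibitor of cytokine receptors, had the smallest p in skin (1.52 ± 0.19, adjusted p = 0.00845), and *Ptpn1*, a phosphatase that acts on JAK kinases, that in small intestine (1.35 ± 0.13, adjusted p = 0.00159). None of the genes induced mainly by interferon-gamma was called. In skin, 0 of 6 tested had a log2 fold change above 0 with all libraries (median -0.32). This became 5 of 6 without control replicate 2 (median 0.14), again with none called. With all skin libraries and in small intestine, the genes with the smallest p were as follows. *Cxcl9* had the smallest p in skin (-0.73, -1.56 to 0.09) and *Ciita*, the regulator of MHC class II, in small intestine (-1.05, -1.69 to -0.41, adjusted p = 0.122).

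Of 53 other interferon-induced genes in the table, 6 of 53 tested were called in skin (*Ifi203*, *Ifitm1*, *Trim30b*, *Slfn1*, *Slfn2* and *Ms4a4c*) and 2 of 52 in small intestine (*Slfn2* and *Ms4a4c*), all higher. The shares of all genes called higher were 4.05% in skin and 2.77% in small intestine. *Ifitm1* had the smallest p in skin, with 253.3, 340.2 and 407.1 normalized counts in controls and 1222.8, 1559.0 and 1861.0 with IMQ (2.21 ± 0.24, adjusted p = 0.00513). *Ms4a4c* had the smallest p in small intestine, with 77.02, 34.28 and 67.42 against 608.2 and 560.0 (3.29 ± 0.34, adjusted p = 0.00233). *Ms4a4c* is also expressed by monocytes. Median log2 fold changes of this list were 0.19 in skin and 0.20 in small intestine. The values in skin again differed without control replicate 2. There, 10 of 53 genes were called, all higher (5.49% of all genes). The median was 0.41 (all genes 0.01), and 46 of 53 were above 0, against 34 with all libraries.

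Markers of myeloid cells moved with treatment in both tissues. Of 10 monocyte and macrophage markers, 6 were called higher in skin (4.05% of all genes) and 6 in small intestine (2.77%). In skin without control replicate 2, 5 were called higher (5.49% of all genes). Summed normalized counts of these markers were 34188.9 to 49643.9 in control skin and 84651.0 to 108875.8 in IMQ skin. In small intestine they were 18894.2 to 29332.0 in controls and 66760.7 to 67203.9 with IMQ. *Adgre1* had the smallest p in skin (2.88 ± 0.32, adjusted p = 0.00624) and *C1qc* in small intestine (2.61 ± 0.20, adjusted p = 0.000708). Of 5 neutrophil markers tested in skin, 5 were called higher (4.05% of all genes), led by *S100a9* (9.46 ± 0.26, adjusted p = 7.6e-05). The number was also 5 without control replicate 2 (5.49% of all genes). In small intestine 1 of 4 tested was called higher (2.77% of all genes), *Csf3r* (3.21 ± 0.23, adjusted p = 0.000486), and 2 of 4 had a log2 fold change above 0. The 38 genes, summed in the same way, stood at 36721.5 to 58627.3 in control skin and 43520.4 to 51983.6 in IMQ skin, and at 99720.4 to 113505.5 and 121342.6 to 132604.8 in small intestine. The part of the myeloid cells in the values of the 38 genes was not tested.

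Of 8 markers of plasmacytoid dendritic cells, the cells known for interferon output, 7 were tested in skin and 8 in small intestine. None of those tested was called in either tissue. *Siglech*, which defines these cells in mice, had 268.7, 272.6 and 170.9 normalized counts in control skin and 177.0, 130.6 and 176.0 in IMQ skin (-0.56, 95% CI -1.18 to 0.07). In small intestine it had 308.1, 410.3 and 299.2 against 196.1 and 60.99 (-1.39, -2.49 to -0.29, adjusted p = 0.253), below every control. *Klk1* had the smallest p of this list in small intestine (-0.49, -0.84 to -0.14, adjusted p = 0.188) and was at 2496.3 to 3312.9 normalized counts in the controls there. Its mean in control small intestine was 53.1 FPKM, against 2.61 for *Siglech*, and which cells held it was not tested. In skin *Klk1* failed the filter of at least 1 count in every library and was not tested. Its read counts were 41, 43 and 40 in control skin and 0 in each IMQ skin library. The summed normalized count of the 8 markers was 18528.8 to 35440.5 in control skin, 26232.0 to 40642.1 in IMQ skin, 12042.6 to 14942.0 in control small intestine and 10225.6 to 11499.9 in IMQ small intestine. In skin most of this sum was *Ly6d* (9519.8 to 32597.4), a gene that keratinocytes also express, and *Tcf4* (4558.6 to 5648.7), so it is not a level of these cells there. In small intestine the largest part was *Irf8* (5393.3 to 9123.7), which other myeloid cells and B cells also express.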

How the data were processed

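RNA of skin and small intestine was sequenced as paired-end reads from TruSeq Stranded mRNA libraries. Per the study methods, the authors used mm10 as the genome, HISAT for alignment and StringTie for assembly and quantification (HISAT2 2.1.0, StringTie 2.1.3b, Trimmomatic and bcl2fastq 2.20.0 in the submitters' processing notes). They deposited read counts, FPKM and TPM for each library in 1 table. The strand setting and the treatment of reads that map to several genes were not given in the sources used here. All columns belonged to a sample of the series (0 others). TPM were not used in any test.

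The deposited counts of 44995414 to 58526384 per library were fitted with edgeR 4.0.16 (quasi-likelihood test, relative log expression factors, genes with at least 1 count in every library of the fit, Benjamini-Hochberg adjustment over all genes tested) in R 4.3.3, separately in each tissue and over all 11 libraries for the interaction and the control tissues. The standard error was taken as the log2 fold change divided by the square root of F, and the 95% confidence interval from it. Scripts were tested on simulated counts. Alternatives were TMM factors, DESeq2 1.42.0, limma-voom 3.58.1, other filters on low counts, limma on log2 of the deposited FPKM + 0.01 or + 1, a fit of all 11 libraries, and each library left out. Gene positions and promoters come from RefSeq (GRCm38.p6), matched by gene ID and symbol; no coordinate was converted.

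The 38 genes and all gene lists were chosen with earlier results of these data known. Genes were given with values per library if they were among the 6 called genes with the smallest p of a comparison or the 4 highest or 4 lowest log2 fold changes of a tissue, or were *Irf7*, *Isg15*, *Stat2*, *Irf9*, *Ifit1*, *Mx1*, *Usp18* or *Rsad2*; of the pathway lists, *Tlr7*, *Ifnb1*, *Ifnar1*, *Ifnar2*, *Irf8*, *Siglech* and the gene with the smallest p of each list and tissue. Other genes named were chosen after their values were seen. Skin control replicate 2 was kept in the main comparison and left out as an alternative. Some results are not reported here.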

Additional observations from a re-analysis of the deposited data

Results flagged for a closer look

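Outlying samples were looked for only in groups of 4 to 10 libraries, and every group here held 2 or 3, so control skin replicate 2 is described in the report without such a test. Among the genes of the interferon pathway, 4 responded differently to IMQ in the small intestine and in skin by the interaction term of edgeR's quasi-likelihood test (log2 fold change in small intestine minus that in skin, n = 11 libraries). They were 2 of 19 tested genes of the TLR7 pathway and interferon induction, 1 of 8 negative regulators and 1 of 52 other interferon-induced genes. None of 6 receptor, 3 Janus kinase and 6 interferon-gamma-induced genes was called. The share over all 18108 genes was 2.55%. The endosomal receptor gene *Tlr8* differed by 2.51 ± 0.39 (SE; adjusted p = 0.00903), with 1.77 in skin and 4.28 in small intestine. The transcription factor gene *Irf5*, which acts downstream of TLR7, differed by 1.37 ± 0.21 (adjusted p = 0.00927), with 0.33 in skin and 1.69 in small intestine. *Ptpn1* differed by 0.81 ± 0.16 (adjusted p = 0.0263), with 0.55 and 1.35. *Ifitm1* differed by -2.00 ± 0.44 (adjusted p = 0.0400), with 2.21 in skin and 0.21 in small intestine. When 1 library at a time was left out, the difference passed in 11 of 11 fits for *Tlr8*, 10 of 11 for *Irf5*, 3 of 11 for *Ptpn1* and 4 of 11 for *Ifitm1*. None of the 38 interferon-induced genes was among them.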

How the results depend on the processing

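Each group held 2 or 3 libraries, and the median width on either side of the log2 fold changes of the 38 genes (95% CI) was 0.69 in skin, 0.43 without control replicate 2 and 0.40 in small intestine. No paired analysis was possible because every library carries a replicate number of its own. In skin, the number of the 38 genes called was 4 with DESeq2, 1 each with limma-voom, edgeR's expression filter and log2(FPKM + 1), 0 with the other settings, and 0 to 9 when 1 library was left out (9 without control replicate 2). In small intestine it was 11 with DESeq2, 1 with log2(FPKM + 1), 0 in a fit of all 11 libraries and 0 to 4 when 1 library was left out. The interaction gave 0 to 1 when 1 library was left out and 0 otherwise. Between control tissues, 29 to 35 genes were called. The cause of these differences was not tested.

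Log2 fold changes that changed sign are given as the range over the fits without 1 library. In skin these were -0.51 to 0.06 for *Ciita*, -0.42 to 0.27 for *Ifih1*, -0.51 to 0.78 for *Ifit1*, -0.34 to 0.31 for *Irf9*, -0.98 to 0.17 for *Isg15*, -0.68 to 0.04 for *Oasl2*, -0.40 to 0.08 for *Stat2*, -0.80 to 0.36 for *Usp18*, -0.40 to 0.24 for *Xaf1* and -0.31 to 0.14 for *Zbp1*, the last value of each without control replicate 2. In small intestine they were -0.20 to 0.28 for *Herc6* and -0.59 to 0.37 for *Zbp1*, the last value without control replicate 9, and -0.07 to 0.22 for *Ifnar1* and -0.15 to 0.57 for *Mx1*, the first value without IMQ replicate 11 and 10. For the interaction they were -0.09 to 0.38 for *Ddx58*, -0.06 to 0.63 for *Irf9*, -0.48 to 0.27 for *Oas1a*, -0.58 to 0.38 for *Oas1g*, -0.35 to 0.80 for *Oas3*, -0.52 to 0.73 for *Rsad2* and -0.20 to 0.27 for *Samd9l*, the first value without skin control replicate 2, and -0.41 to 0.39 for *Oasl1* (0.37 with log2(FPKM + 1)) and -0.47 to 0.51 for *Zbp1*, the last value without small intestine control replicate 9. Between control tissues, log2(FPKM + 0.01) and log2(FPKM + 1) gave -0.11 and -0.08 for *Ifit2*, -0.12 and -0.12 for *Irf9* and -0.00 and -0.01 for *Trim30a*. None of these genes passed the threshold in the comparison and fit concerned. Sign changes of values within 1 SE of the reported value, without a call in either fit, were not listed (36 in skin, 32 in small intestine, 59 in the interaction and 11 between tissues for the 38 genes).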
